A study of Mus musculus with 6 samples.

Results

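A list of 32 genes that mark nerve tissue, 26 of neurons and 6 of Schwann cells and neural crest, was followed in cultured heart cells that express either a mutant or a wild-type histone H3.3. Members were the rows of the deposited raw count table whose symbol is on the list. Of the 32 genes, 22 had a row among the 15159 genes of the table, 17 neuronal and 5 glial. The other 10 had no row and were not analysed here: the neuronal genes Stmn2, Stmn3, Nefl, Dcx, Snap25, Syt1, Chga, Cntn1 and Th, and Foxd3, a neural crest transcription factor. The smallest total of any row in the table was 19 counts. Of the 22 genes, 19 had enough counts to be tested, 14 neuronal and 5 glial. Stmn4, Nefm and Elavl3 had too few, with 49, 40 and 33 counts over all 6 libraries.

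The libraries were made from polyadenylated RNA of embryonic cardiac cells of C57BL/6 x 129S4/SvJae mice at embryonic day 18.5, cultured for 4 days on PDMS, a silicone, with a stiffness of 13 kPa. In the H3K9M group (3 libraries) the cells carried an inducible H3.3 with methionine at lysine 9, a mutant known to block methylation at that lysine, and in the H3WT group (3 libraries) they carried an inducible wild-type H3.3. Both groups received doxycycline at 2 µg/ml on the first days of culture, and no group without a transgene or without doxycycline was analysed here. The labels do not give the promoter that drives the transgene, nor the animals or cultures behind each library, so the p-values reflect library-to-library spread, which may be technical. In both groups the title of replicate 2 lacks the word for the soft substrate that the other titles carry, although all samples share 1 growth protocol. The title of replicate 1 lacks the code D4 that the other titles carry. A further title code, beginning with M, is the same in both groups for replicates 1 and 3 and differs for replicate 2.

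Neurons and Schwann cells reach the heart from the neural crest. Sympathetic and parasympathetic axons grow into the fetal heart along the vessels, guided by neurotrophic factors that heart and vessel cells secrete, and Schwann cells follow these axons under the control of neuregulin receptors. The cell bodies of sympathetic neurons lie in ganglia outside the heart, so a dissociated heart brings few nuclei of these neurons into culture. In cells that are not neurons many neuronal genes are held silent by the repressor REST, which recruits corepressors with histone deacetylases, the demethylase Kdm1a and the H3K9 methyltransferase Ehmt2 (G9a).

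Between 55550379 and 67994773 counts were obtained per library. Levels are given as CPM, the usual depth-scaled count, with library sizes from TMM normalisation. The cardiac label fitted the data: 14 cardiomyocyte markers summed to between 34730 and 39877 CPM in H3K9M and between 32064 and 39856 CPM in H3WT. Markers of fibroblasts (15750 to 23358 CPM in H3K9M, 16678 to 22574 CPM in H3WT) and of smooth muscle and pericytes (5077 to 5642 CPM in H3K9M, 5431 to 7160 CPM in H3WT) were also high. The H3.3 gene H3f3a averaged 1360 CPM in H3K9M and 1465 CPM in H3WT, and gene counts do not separate the transgene from the endogenous gene.

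**Figure D1:**
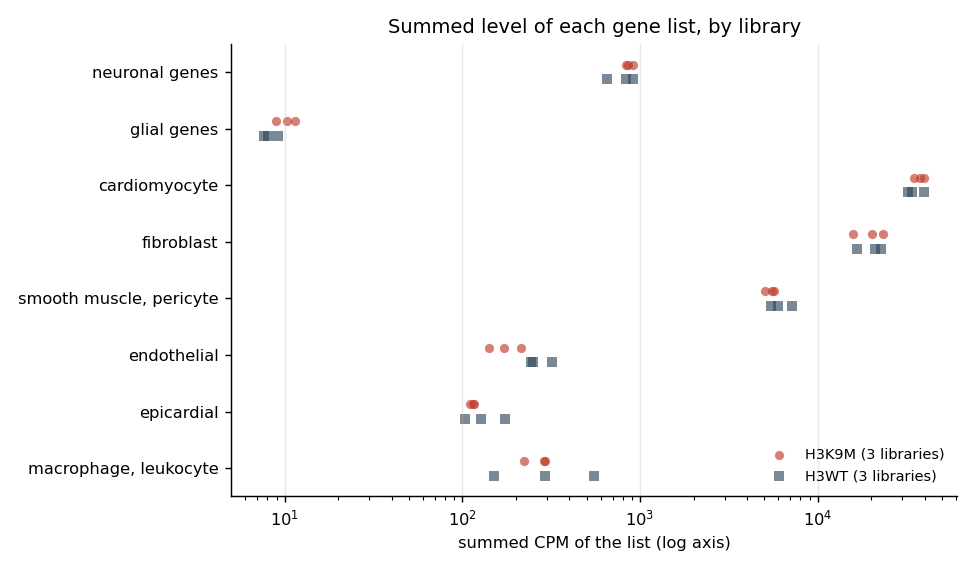
Summed CPM (log axis) of the neuronal and glial genes and of marker lists of 6 heart cell types, with 1 point per library. The glial genes sum to between 7.67 and 11.4 CPM in all 6 libraries, and the groups are apart for the endothelial markers, at 142 to 214 CPM in H3K9M and 243 to 320 CPM in H3WT.

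Most neuronal reads came from a few genes that are not restricted to neurons. The 17 neuronal genes summed to 912, 838 and 852 CPM in H3K9M replicates 1, 2 and 3, and to 648, 838 and 911 CPM in H3WT replicates 1, 2 and 3, so the groups overlapped. The 4 genes Dpysl3, Tubb3, Ncam1 and Map2 gave between 97.4% and 98.3% of the sum in each library. The other 13 together made 18.2, 16.3 and 15.1 CPM in H3K9M and 17.1, 14.3 and 17.6 CPM in H3WT. Genes restricted to mature neurons were near 0: Nefm, the medium neurofilament chain, had 0, 10 and 15 counts in H3K9M and 5, 6 and 4 counts in H3WT. Elavl3, an RNA-binding protein of neurons, had 2, 0 and 9 counts in H3K9M and 5, 6 and 11 counts in H3WT, and Stmn4, a microtubule-destabilising stathmin, had 2, 26 and 2 counts in H3K9M and 3, 0 and 16 counts in H3WT. Exons of Nefm share 1108 bases with Nefl on the opposite strand, and the strand setting of the counting is not given in the sources used here, so its few reads are uncertain.

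Per length the order of the neuronal genes was led by 2 cytoskeletal genes. Levels were divided by length and scaled to a common total (TPM) with the summed exon length of each gene in GENCODE M21. Tubb3, a tubulin chain used as a neuronal marker, averaged 350 ± 74.1 TPM in H3K9M and 392 ± 92.4 TPM in H3WT (SD, n = 3 each), and Dpysl3, a collapsin response protein of growing axons, averaged 282 ± 48.5 TPM in H3K9M and 213 ± 58.2 TPM in H3WT. These 2 genes stood at percentiles 97.1 and 95.3 of the mean TPM of 14534 genes, and their ranges overlapped. Ncam1, a cell adhesion molecule that muscle cells also make, followed with 65.3 ± 2.59 TPM in H3K9M and 77.6 ± 10.1 TPM in H3WT, at percentile 82.5. Below these came Map2, a dendritic microtubule protein, at percentile 36.0, Dbh, the enzyme that makes noradrenaline, at percentile 32.7, and Sncg, gamma-synuclein of peripheral neurons, at percentile 28.0. Map2 averaged 7.30 ± 2.17 TPM in H3K9M and 10.1 ± 1.41 TPM in H3WT, Dbh 5.92 ± 1.35 TPM in H3K9M and 8.46 ± 3.57 TPM in H3WT, and Sncg 5.65 ± 2.39 TPM in H3K9M and 4.69 ± 1.40 TPM in H3WT. The ranges of these 3 genes overlapped, so their order is not fixed by these libraries. The other tested neuronal genes except Gap43 and Ret stood below percentile 13, down to Mapt, the axonal protein tau, at percentile 1.16.

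**Figure D2:**
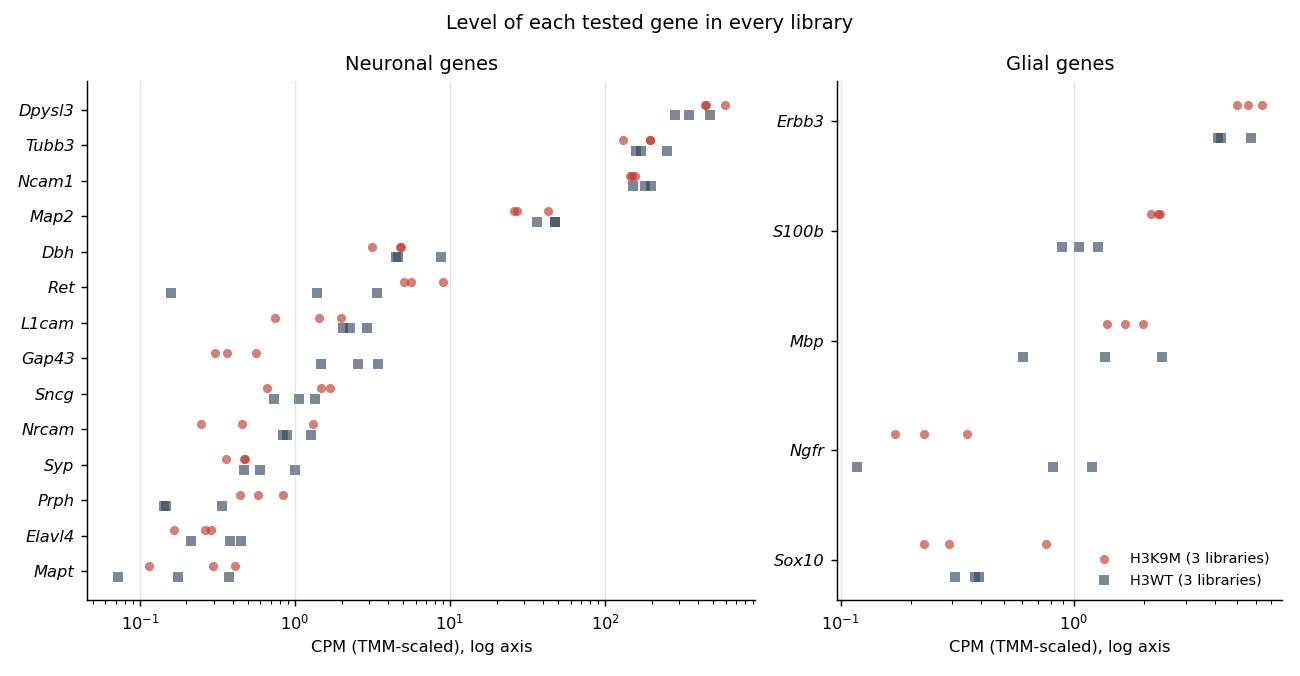
CPM (log axis) of the 14 neuronal and 5 glial genes tested, with 1 point per library and the H3K9M points above the H3WT points. Dpysl3, Tubb3, Ncam1 and Map2 lie above 25 CPM, and every glial gene lies below 6.5 CPM.

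The question put to these genes was whether their transcript levels depended on which H3.3 the cells carried. H3K9M was compared with H3WT with edgeR's quasi-likelihood test over all 14758 genes with enough counts, with Benjamini-Hochberg adjustment at 0.05. Of the 14 neuronal genes 1 fell, 0 rose and 13 did not pass, and none of the 5 glial genes passed. Over all tested genes 1.99% passed, 0.935% higher and 1.05% lower in H3K9M, so 1 call among 19 genes does not set the list apart. At an unadjusted p under 0.05 stood 5 neuronal and 1 glial gene, against 16.4% of all genes. DESeq2 called Gap43 and the glial gene S100b, against 6.84% of all genes, and limma-voom called no member, against 1.5% of all genes. The median log2 fold change was -0.34 over the 14 neuronal and 0.24 over the 5 glial genes, beside -0.00245 over all tested genes. Negative fold changes were found in 9 of the 14 neuronal genes and 1 of the 5 glial genes, and in 50.5% of all genes.

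**Figure D3:**
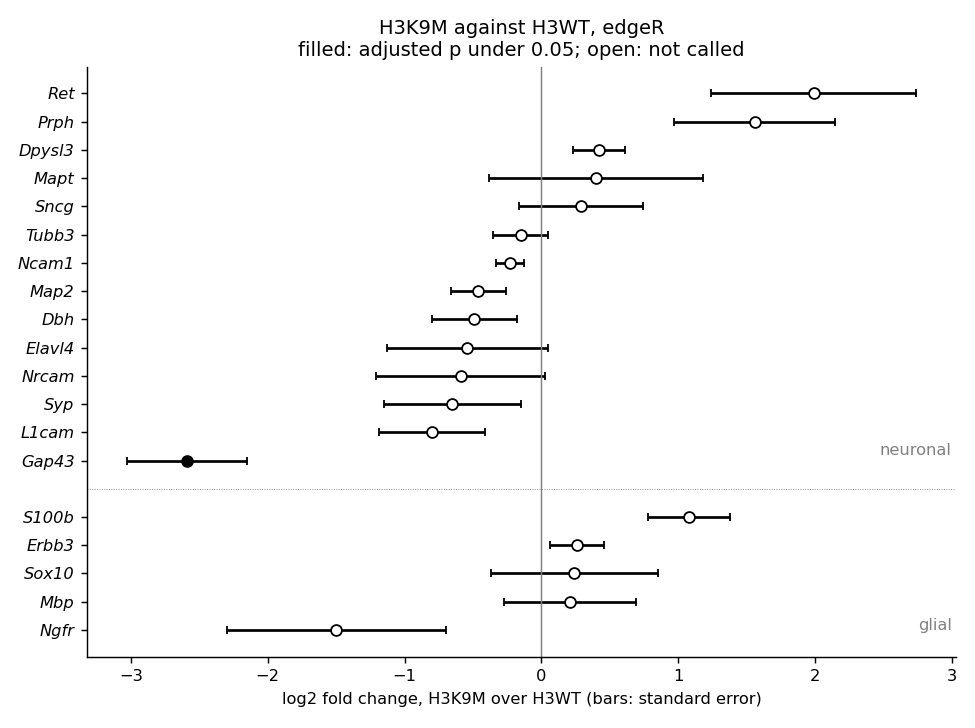
Log2 fold change of H3K9M over H3WT for the 19 tested genes, neuronal above and glial below, with the standard error as a bar. Gap43 at -2.59 is the 1 gene past the threshold (filled), and Ret at 1.99 and Prph at 1.56 have the highest fold changes and wide errors.

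Gap43, the growth-cone protein of extending axons, was the member that fell. It had 18, 34 and 21 counts in H3K9M replicates 1, 2 and 3, against 83, 141 and 233 counts in H3WT replicates 1, 2 and 3. Scaled, it stood at 0.307, 0.560 and 0.366 CPM in H3K9M and at 1.48, 2.54 and 3.42 CPM in H3WT. All 3 H3K9M libraries were thus below all 3 H3WT libraries, and the highest H3K9M level was well under the lowest H3WT level. The log2 fold change was -2.59 ± 0.44 (SE), a level 6.01-fold lower in H3K9M (edgeR adjusted p = 0.0313). In the authors' deposited table its log2 fold change was -2.47 ± 0.62, with a DESeq2 adjusted p of 0.00432. Per length Gap43 was a low gene in both groups, at 1.02 ± 0.327 TPM in H3K9M and 6.20 ± 2.46 TPM in H3WT. In bulk RNA, fewer cells of a type and less RNA per cell cannot be told apart.

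The call on Gap43 was lost without any library but 1. It was kept without H3WT replicate 1 (edgeR adjusted p = 0.0217) and lost without H3K9M replicate 1 (0.0953), H3K9M replicate 2 (0.0748), H3K9M replicate 3 (0.105), H3WT replicate 2 (0.124) or H3WT replicate 3 (0.0557). The log2 fold change lay between -2.88 and -2.28 in these 6 fits. Over all genes 293 were called with all 6 libraries and between 60 and 372 without 1 library. More were called only without H3WT replicate 3. The call was also lost with limma-voom (adjusted p = 0.0724). On mouse build GRCm38 (GENCODE M21) Gap43 spans chr16:42248442-42340651 on the minus strand and shares no exon bases with another gene.

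Markers of other cells were set beside Gap43. All 10 endothelial markers had negative fold changes, beside 50.5% of all genes. Of these markers 1, Npr3, passed and 9 did not, beside 1.99% of all genes called. Their sum was 142, 214 and 172 CPM in H3K9M and 243, 249 and 320 CPM in H3WT. That is the same order of libraries within each group as Gap43. The sums of the cardiomyocyte, fibroblast, smooth muscle and pericyte, epicardial, and macrophage and leukocyte markers had other orders. Of the autonomic neuron genes 6 of 10 tested had negative fold changes and none passed, near the shares of all genes. Of the further Schwann cell and neural crest genes 28 of 36 had negative fold changes and 3 fell, or 8.33%. Phox2a, a transcription factor that defines autonomic neurons and was picked with its values in view, was at 0.342, 0.296 and 0.157 CPM in H3K9M and 0.196, 0.126 and 0.250 CPM in H3WT, and Sox10, which defines Schwann cells and their precursors, stayed below 0.76 CPM in every library. The part of these cells in the Gap43 level was not tested.

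**Figure D4:**
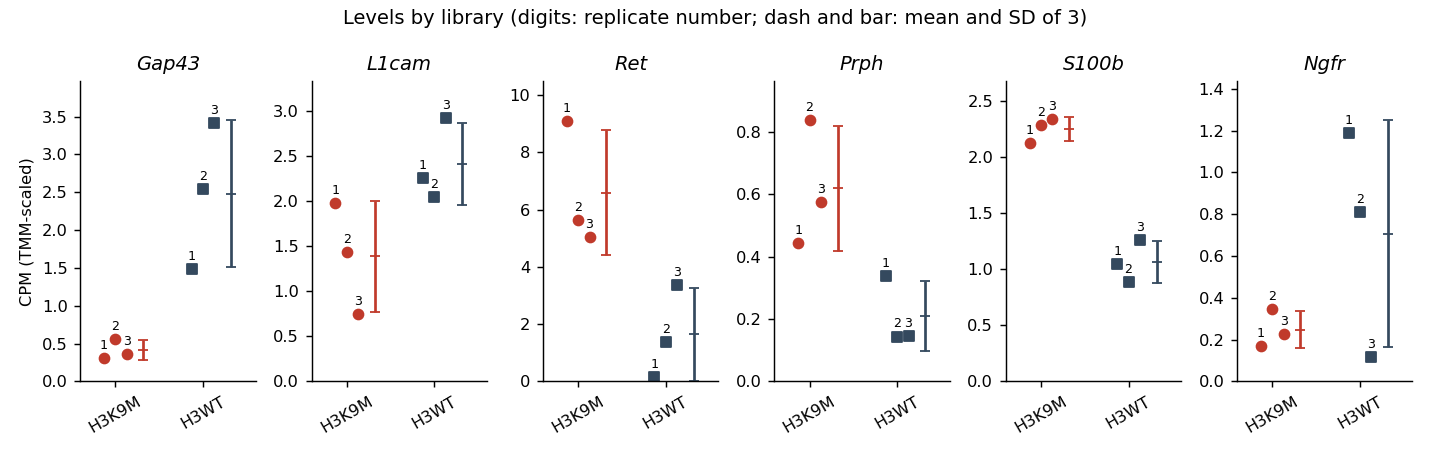
CPM of Gap43, L1cam, Ret, Prph, S100b and Ngfr in each library (digits give the replicate number), with the mean and SD of 3 beside the points and each axis starting at 0. The groups do not overlap in the first 5 genes, while for Ngfr H3WT replicate 3 at 0.118 CPM lies below all H3K9M libraries.

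In 4 more members the groups did not overlap but the test did not pass. Over all tested genes 22.6% had groups that did not overlap, beside 5 of these 19 genes, so that count is near the background. Ret, the receptor for neurotrophic factors of the GDNF family, was at 9.08, 5.64 and 5.03 CPM in H3K9M and at 0.160, 1.39 and 3.38 CPM in H3WT. The H3WT libraries spread widely, with 9 counts in replicate 1 and 230 counts in replicate 3. Its log2 fold change was 1.99 ± 0.75 (edgeR adjusted p = 0.235). Krt19, an epithelial keratin on the epicardial marker list that was picked here after its values were seen, ran alongside, at 10.8, 8.43 and 4.97 CPM in H3K9M and 0.641, 2.58 and 5.72 CPM in H3WT. The 8 epicardial markers as a whole, 4 with positive and 4 with negative fold changes, summed to between 110 and 117 CPM in H3K9M and between 104 and 173 CPM in H3WT. Their part in the Ret level was not tested.

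Prph, the peripherin filament of peripheral neurons, had 26, 51 and 33 counts in H3K9M and 19, 8 and 10 counts in H3WT, or 0.444, 0.839 and 0.576 CPM in H3K9M and 0.339, 0.144 and 0.147 CPM in H3WT. The lowest H3K9M library lay just above H3WT replicate 1, and the log2 fold change of 1.56 ± 0.59 did not pass (edgeR adjusted p = 0.243). L1cam, an axonal adhesion molecule that Schwann cells and some vessel cells also carry, was at 1.98, 1.43 and 0.750 CPM in H3K9M and 2.26, 2.05 and 2.92 CPM in H3WT. The gap between the groups was small beside the spread within H3K9M, with a log2 fold change of -0.80 ± 0.39 (adjusted p in edgeR = 0.354). L1cam shares 100 exon bases with Arhgap4 on the same strand.

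No promoter entry was found for Gap43 and Ret, whose groups did not overlap. Promoter sequences of Prph, S100b and L1cam, the other 3 members whose groups did not overlap, are shown. They are from RefSeq (GRCm38.p6). Each line holds the 250 bases before the start site, 5′ to 3′ on the gene's own strand, and capitals mark matches on either strand to 6 motifs: TATAAA, the GC box GGGCGG, the E-boxes CACGTG and CAGCTG, and TTCAGCACC and GGACAG, which are taken from the left and right arms of the REST element.
Prph, chr15:99054924-99055173, plus strand: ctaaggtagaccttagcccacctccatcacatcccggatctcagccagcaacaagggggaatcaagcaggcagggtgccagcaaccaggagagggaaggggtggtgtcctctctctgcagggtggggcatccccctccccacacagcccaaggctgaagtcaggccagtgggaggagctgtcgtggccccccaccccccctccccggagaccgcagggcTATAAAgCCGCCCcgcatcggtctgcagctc
S100b, chr10:76253586-76253835, plus strand: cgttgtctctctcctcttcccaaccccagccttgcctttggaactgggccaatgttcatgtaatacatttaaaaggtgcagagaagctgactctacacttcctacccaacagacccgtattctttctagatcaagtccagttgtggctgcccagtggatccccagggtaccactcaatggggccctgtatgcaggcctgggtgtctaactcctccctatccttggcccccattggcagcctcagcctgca
L1cam, chrX:73880791-73881040, minus strand: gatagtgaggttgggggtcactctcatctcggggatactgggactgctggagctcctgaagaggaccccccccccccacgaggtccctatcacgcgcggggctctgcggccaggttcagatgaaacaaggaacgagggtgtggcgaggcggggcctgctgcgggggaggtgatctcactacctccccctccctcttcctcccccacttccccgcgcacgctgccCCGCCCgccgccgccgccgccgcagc
Prph held 1 TATAAA and, next to it without overlap, 1 GC box on the other strand. L1cam, for which the first of 2 listed start sites is shown, held 1 GC box and S100b held none of the 6 motifs. The L1cam window lies within the span of the gene, chrX:73853778-73896105 on the minus strand, and not before its 5′ end. Of 32851 such windows 12.4% hold TATAAA, 32.7% the GC box, 6.02% CACGTG, 13.0% CAGCTG, 0.301% TTCAGCACC and 18.7% GGACAG. CpG dinucleotides numbered 7 in Prph, 2 in S100b and 20 in L1cam, more than in 53.7%, 18.8% and 82.1% of the windows. Windows were found for 19 of the 32 genes.

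The other neuronal genes showed smaller or less even differences. Dpysl3 was at 593, 450 and 442 CPM in H3K9M and 284, 347 and 477 CPM in H3WT, overlapping in H3WT replicate 3, with a log2 fold change of 0.42 ± 0.19 (adjusted p in edgeR = 0.320). Tubb3 was at 131, 194 and 196 CPM in H3K9M and 158, 249 and 171 CPM in H3WT, a log2 fold change of -0.15 ± 0.20. The standard error was larger than the change, and the sign turned without H3K9M replicate 1 (0.01) or H3WT replicate 2 (0.08). Ncam1 was at 144, 150 and 156 CPM in H3K9M and 152, 180 and 198 CPM in H3WT (-0.23 ± 0.10, edgeR adjusted p = 0.300). Map2 was at 25.7, 27.2 and 42.9 CPM in H3K9M and 36.4, 47.4 and 47.5 CPM in H3WT (-0.46 ± 0.20, edgeR adjusted p = 0.302). In both genes 1 H3WT library fell within the H3K9M range.

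Genes of noradrenaline and vesicle biology were low. Dbh was at 3.12, 4.84 and 4.75 CPM in H3K9M and 8.80, 4.49 and 4.61 CPM in H3WT, so that only H3WT replicate 1 stood above the H3K9M libraries (log2 fold change -0.49 ± 0.31, edgeR adjusted p = 0.479). Sncg was at 0.666, 1.48 and 1.69 CPM in H3K9M and 1.35, 1.06 and 0.735 CPM in H3WT, with overlapping groups. Syp, the synaptic vesicle protein synaptophysin, was at 0.478, 0.362 and 0.471 CPM in H3K9M and 0.998, 0.595 and 0.470 CPM in H3WT, and its exons share 875 bases with Gm14703 on the opposite strand. Elavl4, Nrcam and Mapt, a neuronal RNA-binding protein, an axonal adhesion molecule and tau, had log2 fold changes of -0.54 ± 0.59, -0.59 ± 0.62 and 0.40 ± 0.78 at means under 1.1 CPM in both groups. At that depth a change of the size of these errors was not detectable.

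Of the glial genes, none passed and 1 came closest. S100b, a calcium-binding protein of Schwann cells and astrocytes, had 125, 139 and 134 counts in H3K9M and 59, 49 and 86 counts in H3WT. It was at 2.13, 2.29 and 2.34 CPM in H3K9M and 1.05, 0.883 and 1.26 CPM in H3WT, so the H3K9M libraries lay close together and all above H3WT. The log2 fold change was 1.08 ± 0.30 (edgeR adjusted p = 0.114), and DESeq2 called it (adjusted p = 0.0191). In the authors' deposited table it was 1.05 ± 0.47 with a DESeq2 adjusted p of 0.251, which did not pass. Without 1 library at a time it lay between 0.96 and 1.22, with edgeR adjusted p-values from 0.108 to 0.329.

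The other glial genes had smaller or less even differences. Sox10 was at 0.290, 0.757 and 0.227 CPM in H3K9M and 0.392, 0.378 and 0.309 CPM in H3WT, a log2 fold change of 0.24 ± 0.61 that turned to -0.48 without H3K9M replicate 2. Erbb3, the neuregulin receptor of Schwann cells, was the highest glial gene in CPM, at 4.97, 6.39 and 5.55 CPM in H3K9M and 4.15, 4.25 and 5.73 CPM in H3WT (0.26 ± 0.20, edgeR adjusted p = 0.577). Mbp, myelin basic protein, was at 1.38, 1.65 and 1.97 CPM in H3K9M and 2.39, 1.35 and 0.602 CPM in H3WT, with H3WT libraries on both sides of the H3K9M range (0.21 ± 0.48), and the sign turned to -0.17 without H3WT replicate 3. The 5 glial genes summed to 8.95, 11.4 and 10.3 CPM in H3K9M and 9.18, 7.67 and 8.02 CPM in H3WT, with H3WT replicate 1 inside the H3K9M range.

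Ngfr, the low-affinity neurotrophin receptor p75 of glia, neurons and some mesenchymal cells, went the other way from S100b without passing. It was at 0.171, 0.346 and 0.227 CPM in H3K9M and 1.19, 0.811 and 0.118 CPM in H3WT, a log2 fold change of -1.50 ± 0.80 (adjusted p in edgeR = 0.404). The H3WT libraries spread from 67 counts in replicate 1 to 8 counts in replicate 3. Fibroblast markers chosen after their values were seen had the same order among the H3WT libraries: Tcf21 stood at 41.2, 61.3 and 57.9 CPM in H3K9M and 154, 93.7 and 49.1 CPM in H3WT, and Dcn at 48.9, 95.7 and 116 CPM in H3K9M and 228, 114 and 72.4 CPM in H3WT. The 10 fibroblast markers, 4 with positive and 6 with negative fold changes, summed to 15750, 20123 and 23358 CPM in H3K9M replicates 1, 2 and 3, and to 22574, 21062 and 16678 CPM in H3WT replicates 1, 2 and 3. Among them 1 gene passed, the collagen receptor Ddr2, which rose (0.66), beside 1.99% of all genes called. The order of Tcf21 and Dcn among the H3WT libraries was not particular to fibroblast markers, and the fibroblast markers Col1a1, Fbln2 and Postn had another. The macrophage and leukocyte markers summed to 221, 291 and 287 CPM in H3K9M and 550, 290 and 151 CPM in H3WT. The epicardial markers summed to 115, 117 and 110 CPM in H3K9M and 173, 128 and 104 CPM in H3WT. The part of any of these cells in the Ngfr level was not tested.

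Further genes of nerve tissue were described from lists chosen with earlier results of these data known. Of 48 other pan-neuronal genes 34 were tested, 2 rose, 1 fell and 31 did not pass, with a median log2 fold change of -0.03. That is 8.82% called, beside 1.99% of all genes. DESeq2 called 13 of the 34, beside 6.84% of all genes, and 44.1% had groups that did not overlap, 6 higher and 9 lower in H3K9M, beside 22.6% of all genes. Syn1, synapsin I of synaptic vesicles, rose to 5.72, 5.05 and 6.61 CPM in H3K9M, against 1.75, 1.71 and 1.79 CPM in H3WT. The groups were far apart and narrow, with a log2 fold change of 1.73 ± 0.21 (adjusted p in edgeR = 0.00695), and the call was kept without each library in turn (0.0142 to 0.0484) but not without replicate 2 of both groups together (0.188). In the authors' deposited table Syn1 had 1.16 ± 0.38 and a DESeq2 adjusted p of 0.0560, which did not pass. Syt11, a synaptotagmin of vesicle traffic, rose to 30.7, 31.5 and 34.5 CPM in H3K9M, against 19.9, 22.3 and 17.8 CPM in H3WT (0.69 ± 0.11, edgeR adjusted p = 0.0228). Dpysl4, a collapsin response protein like Dpysl3, fell to 1.08, 0.543 and 0.820 CPM in H3K9M, against 2.82, 2.83 and 2.95 CPM in H3WT (-1.82 ± 0.33, edgeR adjusted p = 0.0373). The call on Syt11 was lost without H3WT replicate 2 or any H3K9M library (0.0531 to 0.0870), and that on Dpysl4 without each of the 6 libraries (0.0571 to 0.143). The most abundant genes of this list, Thy1 and Marcks, did not pass in edgeR (adjusted p = 0.0565 and 0.0645) and passed in DESeq2 (0.000226 and 0.000312) and in the authors' deposited table (0.00133 and 0.000263). They were at 610 ± 32.8 and 227 ± 28.8 CPM in H3K9M and 407 ± 70.5 and 360 ± 67.9 CPM in H3WT (0.58 ± 0.12 and -0.67 ± 0.15).

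Genes of autonomic neurons showed no call. Of 26 genes 15 had no row and 10 were tested, with a median log2 fold change of -0.13. None passed in edgeR, DESeq2 or limma-voom, beside 1.99%, 6.84% and 1.5% of all genes. None had an unadjusted p under 0.05 in edgeR, beside 16.4% of all genes. With 10 genes tested, the lack of a call does not set the list apart. Its most abundant genes were Hand2, a heart and sympathetic transcription factor (79.5 ± 9.43 CPM in H3K9M, 91.6 ± 6.16 CPM in H3WT), and Uchl1, a ubiquitin hydrolase of neurons (74.4 ± 8.35 CPM in H3K9M, 77.1 ± 20.6 CPM in H3WT). Exons of Hand2 share 461 bases and those of Uchl1 295 bases with antisense genes.

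Of 46 other Schwann cell and neural crest genes 36 were tested, 28 with negative and 8 with positive fold changes (median -0.41), beside 50.5% negative over all genes. Among the 36, 3 fell, 0 rose and 33 did not pass, which is 8.33% called beside 1.99% of all genes. DESeq2 called 6, beside 6.84% of all genes. Groups did not overlap in 36.1%, 2 genes higher and 11 lower in H3K9M, beside 22.6% of all genes. Adgrg6, an adhesion receptor needed for myelination that endocardium also expresses, fell to 7.10, 11.8 and 13.5 CPM in H3K9M, against 29.1, 34.9 and 25.5 CPM in H3WT (-1.46 ± 0.23, edgeR adjusted p = 0.0216). Kit, a receptor of melanoblasts, mast cells and other progenitors, fell to 3.4, 6.65 and 5.74 CPM in H3K9M, against 12.2, 11.9 and 14.2 CPM in H3WT (-1.28 ± 0.24, edgeR adjusted p = 0.0386). Itgb8, an integrin chain that activates TGF-beta, fell to 4.88, 4.56 and 4.55 CPM in H3K9M, against 9.96, 8.43 and 7.27 CPM in H3WT (-0.87 ± 0.17, edgeR adjusted p = 0.0433). Exons of Adgrg6 share 441 bases with Gm46212 on the opposite strand. None of the 3 is made by Schwann cells alone. The call on Adgrg6 did not hold without replicate 2 of H3K9M (0.0822) or of H3WT (0.109), that on Kit without each library but H3K9M replicate 1 (0.0590 to 0.130), and that on Itgb8 without each library but H3WT replicate 3 (0.102 to 0.163). Itgb8 also did not pass with limma-voom (0.0666) or in the authors' deposited table (log2 fold change -0.61, adjusted p 0.229). The highest genes of this list, Cdh2 (717 ± 37.2 CPM in H3K9M, 684 ± 51.4 CPM in H3WT) and Pmp22 (235 ± 32.7 CPM in H3K9M, 178 ± 18.9 CPM in H3WT), did not pass in edgeR, and DESeq2 called Pmp22 (adjusted p = 0.0253).

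Of 33 tested neurotrophic and axon guidance ligands and receptors 26 had negative fold changes (median -0.34), beside 50.5% of all genes. Among them 1 fell and 0 rose, which is 3.03% called beside 1.99% of all genes. DESeq2 called 7, beside 6.84% of all genes, and 39.4% had groups that did not overlap, beside 22.6% of all genes. Ret, Erbb3 and Ngfr are among the 33, and so are Erbb2 and Gfra3, which the Schwann cell and neural crest list also counts. Gfra2, the co-receptor that pairs with Ret for neurturin, fell to 8.61, 7.59 and 5.37 CPM in H3K9M, against 19.0, 16 and 11.6 CPM in H3WT (-1.11 ± 0.23, edgeR adjusted p = 0.0498). This value sat at the threshold and was lost without each library but H3WT replicate 3 (0.0814 to 0.182) and with limma-voom (0.0765). Ret, with a positive fold change, and Gfra2 thus had opposite signs. The most abundant genes of the list were Il6st, the shared signalling chain of the LIF and cardiotrophin receptors (395 ± 50.6 CPM in H3K9M, 482 ± 107 CPM in H3WT), and the axon repellent Slit2 (104 ± 8.46 CPM in H3K9M, 148 ± 27.0 CPM in H3WT), and neither passed in edgeR. Slit2, whose groups did not overlap, had a log2 fold change of -0.51 ± 0.13 (adjusted p in edgeR 0.099), and it passed in DESeq2 (0.00795) and in the authors' deposited table (0.0141).

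No gene of the REST repressor and its partners passed. Of 25 tested genes none passed, 5 had an unadjusted p under 0.05, DESeq2 called 1 and limma-voom 0, and the median log2 fold change was -0.10. Over all genes 16.4% had an unadjusted p under 0.05 and DESeq2 called 6.84%, so these counts are near the background. Rest itself was at 51.2, 46.4 and 46.6 CPM in H3K9M and 61.9, 52.9 and 59.8 CPM in H3WT, with groups that did not overlap and a log2 fold change of -0.28 ± 0.09 that did not pass (edgeR adjusted p = 0.166). Rest is named here after its values were seen. Kdm1a, picked in the same way, went the other way, at 100, 101 and 95.6 CPM in H3K9M and 83.5, 83.7 and 79.4 CPM in H3WT. Its groups did not overlap either, and its log2 fold change of 0.27 ± 0.07 did not pass (edgeR adjusted p = 0.0836). Of the 25 genes 19 had negative and 6 positive fold changes, beside 50.5% negative over all genes. The most abundant genes of the list were the chromatin remodeller Chd4 (587 ± 26.9 CPM in H3K9M, 528 ± 5.04 CPM in H3WT) and the phosphatase Ctdsp2 (261 ± 15.9 CPM in H3K9M, 295 ± 27.2 CPM in H3WT). Both act in most cell types.

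**Figure D5:**
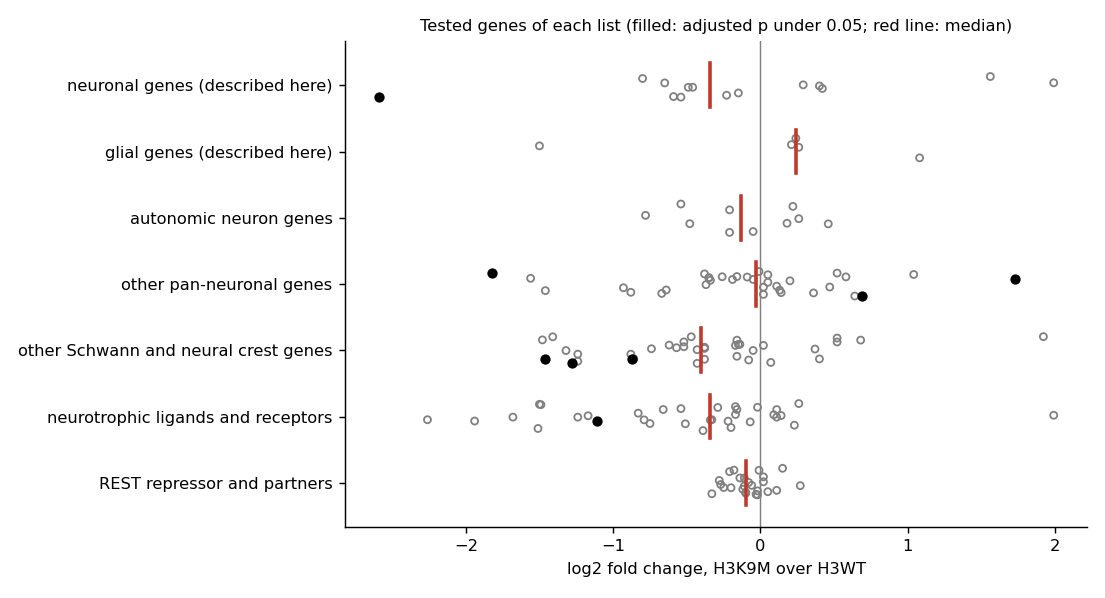
Log2 fold change of H3K9M over H3WT for the tested genes of the neuronal and glial genes and of 5 further lists, 1 point per gene, filled where the edgeR adjusted p is under 0.05, with the median of each list as a red line. Medians run from -0.41 for Schwann and neural crest genes to 0.24 for the 5 glial genes.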

How the data were processed

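RNA of 6 libraries, 3 of H3K9M and 3 of H3WT cells, was sequenced. Per the submitters' processing notes, build mm10 and the tools featureCounts, HISAT2 and DESeq2 were used; versions and strand setting are not given there. The authors deposited raw counts per gene, whole numbers for 15159 genes, whose column names each match 1 title. The authors also deposited the output of their DESeq2 comparison for 14691 genes: a mean normalised count (a signal), the log2 fold change and its error, a p-value and adjusted p-value, and a Wald statistic (a score, not used). The mean counts used here are 3.97 times (median over genes) the means in that table, so the tables do not rest on the same counts. It holds 17 of the 32 genes, 16 with the sign found here, and 1 passes its threshold.

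Genes passing filterByExpr (14758, at a minimum of 10 counts and a total of 15) were TMM-normalised and compared with the quasi-likelihood test of edgeR 4.0.16 (R 4.3.3). The model held the group and no covariate, and p-values were adjusted by Benjamini and Hochberg's method over all tested genes. The standard error is the log2 fold change over the square root of F. Levels are CPM, as mean ± SD of 3 libraries; TPM used union exon lengths of GENCODE M21 (GRCm38, the build also called mm10), found for 95.9% of genes. Total counts were 55550379 to 67994773 per library, the biological coefficient of variation was 18.8% and the median standard error was 0.133. Replicates differed well beyond sampling noise (chi-square per gene 26.7 to 118.8), and none was a duplicate. No member shares its row with another gene.

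The members and lists were chosen with earlier results of these data known. By the naming rule, every member is named, and of each further list the genes that passed and the 2 with the highest CPM; a few further genes were picked with their values in view and are said to be. Alternatives were DESeq2 1.42.0, limma-voom (limma 3.58.1), RLE factors, plain library size, other filters, an adjusted p of 0.1, the replicate number as a block, leaving out each library, and, chosen after seeing the data, leaving out replicate 2 of both groups. Tested on simulated data made from this comparison (14758 genes), edgeR found 70% of the 2-fold and 100% of the 4-fold changes, and 5 of its 175 calls were false. The simulation gave every gene the same dispersion, 0.0353, so these shares need not hold for genes with few counts or wide spread. Most members have few counts, and Ret, 3.97-fold higher in H3K9M, did not pass.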

Additional observations from a re-analysis of the deposited data

How the results depend on the processing

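The count of genes called over the whole table, 293, was 1010 with DESeq2, 664 at an adjusted p of 0.1 and 58 with the replicate block, and lay between 60 and 372 without 1 library. The count of neuronal genes called, 1, was 0 with limma-voom and 0 with the replicate block, where 6 and 4 had an unadjusted p under 0.05, and lay between 0 and 1 without 1 library. The count of glial genes called, 0, was 1 with DESeq2. Without replicate 2 of both groups, a setting chosen after seeing the data, edgeR called 0 of all genes and 0 neuronal genes, with 1378 and 1 at an unadjusted p under 0.05, and Gap43 was at -2.86; this leaves 2 libraries a group. The cause of these differences was not tested.

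Whether the replicate numbers pair the samples is not given by the labels. Deviations from the group mean correlated between same-numbered samples at -0.293, 0.0721 and -0.146. No H3K9M library correlated best with its own number, and of the H3WT libraries only replicate 2 did. With 3 libraries a group the deviations cancel within each group, so these correlations cannot decide on pairing. Replicates 1 and 3 share a title code between the groups and replicate 2 does not, so the block joined samples of unlike code there. With the replicate block the log2 fold change of Gap43 was -2.55 (edgeR adjusted p = 0.1). Of the 7 further nerve tissue genes named as called, the block kept Gfra2 (0.0424) and lost Syn1 (0.0561), Adgrg6 (0.0790), Kit (0.102), Syt11 (0.103), Dpysl4 (0.121) and Itgb8 (0.127). The summed levels of the neuronal and glial genes (log2 ratio of H3K9M to H3WT 0.12 and 0.30) moved by less than the spread between replicates under RLE factors, plain library size and all left-out libraries, with ranges of -0.01 to 0.22 and 0.22 to 0.39 without 1 library.

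Of 36 single genes recomputed, signs turned for Tubb3 without H3K9M replicate 1 (0.01) or H3WT replicate 2 (0.08), Mapt without the same libraries (-0.02 and -0.00), Mbp without H3WT replicate 3 (-0.17), Sox10 without H3K9M replicate 2 (-0.48), Uchl1 without replicate 3 of H3K9M (0.02) or H3WT (0.18), and, without replicate 2 of both groups, Nrcam (0.02) and Sox10 (-0.43). Without 1 library the values lay between -0.28 and 0.08 for Tubb3, -0.02 and 1.1 for Mapt, -0.17 and 0.77 for Mbp, -0.48 and 0.54 for Sox10, and -0.20 and 0.18 for Uchl1. None of these genes passed in any of the fits run. Most members lie near 1 CPM or below, where low counts limit the precision.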
